A study of Mus musculus with 4 samples.

Results

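Transitional B cells are young B cells that have left the bone marrow and finish their maturation in the spleen. They were taken here as the cells that the authors' deposited annotation calls Trans B, 1394 of 24143 annotated cells and of 27577 barcodes in all. Droplet single-cell RNA libraries, 1 per group, were made from sorted live (DAPI-) CD45+ mouse spleen cells of low forward (FSC) and side scatter (SSC). The young WT library held 409 Trans B cells, aged WT 334, the aged miR-146a knockout 282 and the aged double knockout 369. The WT genotype is given as miR155 fl/fl, a floxed miR-155 allele that is intact without Cre, in a text about the aged mice, and the young library is labelled WT only. The miR-146a knockout lacks miR-146a in the whole body. The double knockout lacks miR-146a in the whole body and also miR-155 in T cells, so its second deletion is not aimed at B cells. The strain is C57BL/6, aged mice were 15 months old, and cells of 3 to 6 mice were pooled for every aged library. The sources used here give neither the Cre driver nor the age and number of the young mice. The comparisons ask what differs in these cells with age, with loss of miR-146a, and with the deletion in T cells of miR-155 added to it.

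B cells are made in the marrow in ordered steps. Precursors express the recombinase genes Rag1 and Rag2, the terminal transferase gene Dntt, and Igll1, Vpreb1 and Vpreb2, which encode the surrogate light chain that stands in for a light chain not yet made. Immature and transitional cells keep Cd93, Vpreb3 and high Cd24a while they switch these genes off. Mature follicular cells gain IgD (Ighd) and CD23 (Fcer2a), and rely on BAFF signals for survival. miR-146a is an inhibitor of NF-kB signalling that is known to restrain myeloid output and inflammation with age, and miR-155 promotes lymphocyte activation.

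The mature miRNAs that the genotypes remove are shown because they define the groups, with the seed, bases 2 to 8, in capitals (RefSeq, GRCm38.p6).
mmu-miR-146a-5p: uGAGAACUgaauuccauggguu
mmu-miR-155-5p: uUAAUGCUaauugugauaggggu
The libraries gave no level of either mature miRNA. Mir155hg, the host transcript of miR-155, had 1, 1, 2 and 0 UMIs in Trans B cells of young WT, aged WT, the miR-146a knockout and the double knockout, of 89, 131, 170 and 151 in the whole libraries. These counts do not check the deletions.

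Total UMIs per library lay between 17561683 and 22399381, and the Trans B cells held 860807, 686754, 633533 and 732375 of them in the order young WT, aged WT, miR-146a knockout, double knockout, which is kept below. Their median depth was 1910, 1863.5, 2061.5 and 1797 UMIs per cell. Between 176 and 231 barcodes of each library also occurred in another library, among them 13, 8, 7 and 6 of the Trans B cells, and no barcode was Trans B in more than 1 library. Levels are given as CPM, UMIs per 1000000 UMIs of the Trans B cells of that library, with exact Poisson intervals, and ratios with conditional binomial intervals, all at 95%. With 1 library per group there is no replicate and no test, and intervals reflect counting error alone and hold nothing on variation among mice or preparations. Fewer transcripts per cell and fewer cells expressing a gene cannot be told apart in these sums, so the share of cells is given where it matters.

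The label was checked against its markers first. Cd93, a surface protein of immature B cells, was at 38.3, 34.9, 104 and 66.9 CPM in Trans B cells and at no more than 3.18 CPM in Fo B cells, the follicular B cells of the same libraries. Vpreb3, which encodes an endoplasmic reticulum partner of the precursor receptor, was at 1204, 1012, 3433 and 2777 CPM against 374, 332, 315 and 369 CPM in Fo B cells. Both were higher in Trans B cells than in Fo B cells of every library. Cd79a, the signalling chain shared by all B cells, was at 4679, 4297, 4022 and 4201 CPM. The fourth marker, Vpreb1, split the libraries: it was at 3.49 CPM in young WT (3 UMIs) and had no UMI in aged WT, but was at 541 and 303 CPM in the miR-146a knockout and double knockout. In the WT libraries the label thus rests on Cd93 and Vpreb3, as Cd79a does not tell B cell types apart. At full depth, Cd93 was seen in 7.09%, 7.19%, 19.9% and 10.8% of Trans B cells and in at most 0.563% of Fo B cells. After every cell was thinned to 1000 UMIs, Vpreb3 was seen in 65.3%, 58.7%, 86.2% and 76.9% of Trans B cells, in 26.5% to 28.6% of Fo B cells and in 0.486% to 0.868% of T cells, with 3, 0, 7 and 6 shallower Trans B cells left out. Unthinned, the share with Vpreb3 was 81.2%, 77.5%, 95.4% and 88.3% in Trans B cells and 38.5% to 43.4% in Fo B cells.

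**Figure D1:**
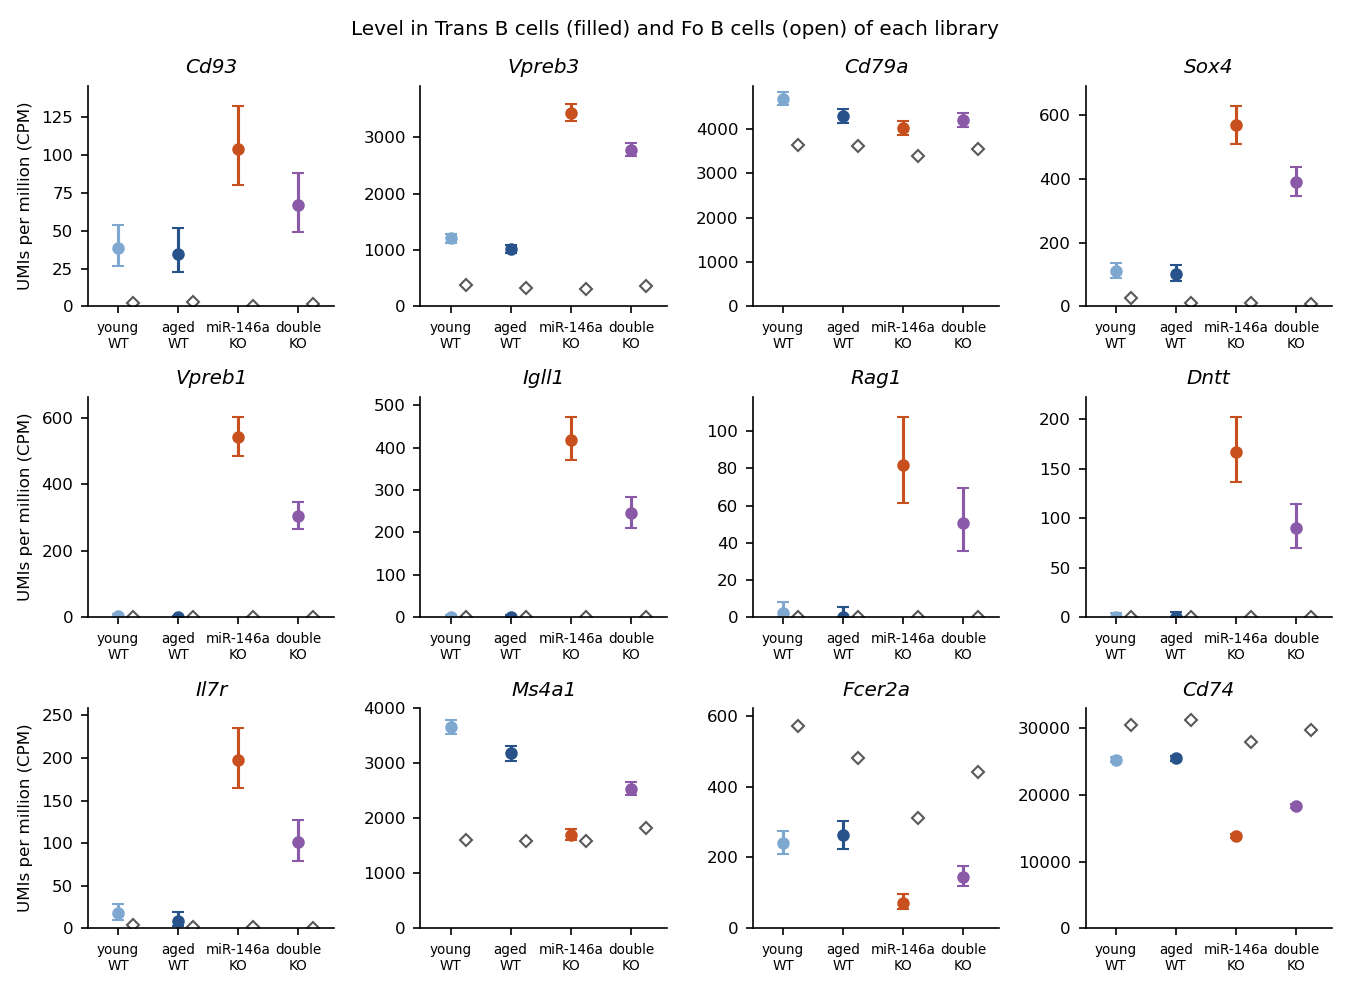
Level of 12 genes in CPM (vertical axes, linear) in Trans B cells of each library (filled circles, bars are 95% Poisson intervals) and in Fo B cells of the same library (open diamonds, slightly offset). Vpreb1, Igll1, Rag1 and Dntt lie at or near 0 in both WT libraries and at 541, 418, 82.1 and 167 CPM in the miR-146a knockout, while Ms4a1, Fcer2a and Cd74 are lowest there.

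Several genes set Trans B cells apart from both other large B cell types of the same library. The annotation may have been made from such genes, so these values describe the cells and test nothing. Cplx2 (complexin, of vesicle fusion) was at 15.1, 26.2, 77.3 and 41.0 CPM and at most 0.827 CPM in Fo B cells. Gh, the growth hormone gene, was at 40.7, 56.8, 69.5 and 86.0 CPM against at most 2.03 CPM. Akap12, a scaffold for kinases, was at 62.7, 61.2, 142 and 145 CPM against at most 6.05 CPM. These genes, with Gas7 and Uchl1, were also among the 12 highest beside MZ B cells, the marginal zone type. Fam129c was at 197, 214, 412 and 350 CPM against 21.9 to 26.1 CPM in Fo B cells. Lower than in Fo B cells were the chemokine receptor gene Ccr6 (18.6, 24.8, 14.2 and 23.2 CPM against 91.1, 93.0, 145 and 127), Sfn (9.47 to 23.3 CPM against 64.1 to 105) and Gimap4 (81.3 to 133 against 376 to 412). Beside MZ B cells the fatty acid receptor gene Ffar2 (1.16 to 6.83 CPM against 29.7 to 108) and Ly6a (112 to 130 against 487 to 642) were among the lower genes. Of 6414 genes with at least 40 UMIs over the 4 Trans B sums, 337 were at least 1.5-fold higher and 58 at least 1.5-fold lower than in Fo B cells in all 4 libraries, and 381 and 57 than in MZ B cells. These counts had 1 UMI added to each sum, and the other types hold larger totals than Trans B cells. Genes with few UMIs in both types therefore lean towards higher. The minimum was set on the Trans B sums alone, so the numbers higher and lower cannot be compared.

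Light chain use also differed between the types. A cell was counted as lambda where its Iglc1, Iglc2 and Iglc3 UMIs together exceeded its Igkc UMIs. The share of such cells among Trans B cells was 19.8% (16.1 to 24.0, exact binomial), 15.9% (12.1 to 20.2), 23.8% (18.9 to 29.2) and 22.8% (18.6 to 27.4). In Fo B cells it was 8.16%, 5.41%, 9.06% and 6.09%, and in MZ B cells 8.84%, 6.49%, 8.36% and 5.94%. The intervals of Trans B cells did not overlap those of either mature type in any library, and those of the 4 Trans B sets overlapped each other. Median counts per Trans B cell were 36, 37, 18 and 27 Igkc UMIs and 15, 14.5, 8 and 10 lambda UMIs. Lambda medians were 6 to 7 in Fo B cells and 8 to 10 in MZ B cells. The share thus compares 2 counts within a cell and does not mean that the other class was absent.

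**Figure D2:**
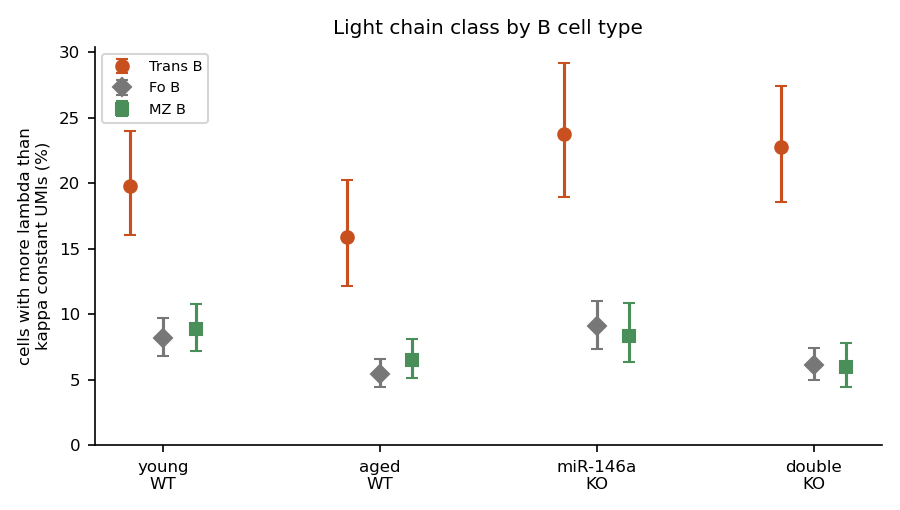
Percent of cells with more lambda than kappa constant-region UMIs (vertical axis) in Trans B, Fo B and MZ B cells of each library (horizontal axis), with exact 95% binomial intervals. Trans B cells lie between 15.9% and 23.8% and the mature types between 5.41% and 9.06%.

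Cells named Trans B took these shares of annotated cells, in the order young WT, aged WT, miR-146a knockout and double knockout: 5.996% (5.44 to 6.59), 5.66% (5.09 to 6.29), 5.84% (5.19 to 6.53) and 5.596% (5.05 to 6.18). The ratio of aged WT to young WT was 0.945 (0.821 to 1.09, Katz interval), that of the miR-146a knockout to aged WT 1.03 (0.883 to 1.20), and that of the double knockout to the miR-146a knockout 0.959 (0.825 to 1.11), each with an interval that includes 1. Within the 5 annotated B cell types the shares were 12.3%, 8.98%, 11.4% and 11.1%. On that base the aged WT share was lower than the young one (ratio 0.728, 0.635 to 0.835), and those of the miR-146a knockout (1.27, 1.09 to 1.48) and double knockout (1.23, 1.07 to 1.42) were higher than that of aged WT. The last 2 ratios share the aged WT library. The share also depended on which Trans B cells were counted. Counting only those with an Ms4a1 UMI, the ratio to aged WT was 0.623 in the miR-146a knockout and 0.731 with both deletions. Without those that held 3 or more UMIs of T cell, myeloid or NK genes, it was 0.383 and 0.428. That filter left 31.2% and 36.3% of knockout Trans B cells. With S100a8 and S100a9 not counted it left 61.0% and 76.2%. The ratio was then 0.742 in the miR-146a knockout. In the double knockout it was within its interval over all Trans B cells (0.856 to 1.14).

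Trans B cells of aged and young WT mice differed little. Of the 6414 genes, 498 (7.76%) were at least 1.5-fold higher in aged WT and 393 (6.13%) at least 1.5-fold lower (13.9% in either direction), counted by size without regard to intervals. The whole interval lay beyond 1.5-fold for only 12 genes higher (0.187%) and 5 lower (0.078%). Fos, an immediate early gene that tissue dissociation also induces, was at 65.5 against 17.4 CPM (3.76-fold, 2.06 to 7.26), and at 71.3 against 14.0 CPM in Fo B cells. Gadd45g, a stress-induced growth arrest gene, was at 51.0 against 8.13 CPM (6.27-fold, 2.74 to 16.7) and Rdh14 at 61.2 against 13.9 CPM (4.39-fold, 2.27 to 9.15). In Fo B cells these 2 genes differed less, at 56.7 against 46.1 CPM and at 29.0 against 24.9 CPM. Ccpg1, Prkcz and Jchain, which encodes the joining chain of secreted antibody, were 3.76-fold, 3.76-fold and 3.18-fold higher. Jchain was also 66.6 against 22.3 CPM in Fo B cells.

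Lower with age were Ifi27l2a, an interferon-inducible gene, at 569 against 1085 CPM (ratio 0.525, 0.465 to 0.591), and Plac8 at 658 against 1160 CPM (0.567, 0.506 to 0.634). Ifi27l2a was lower in Fo B cells too (321 against 561 CPM), where Plac8 was at 408 against 369 CPM. Rgs18 (ratio 0.306, 0.137 to 0.621), Secisbp2l and Atp13a3 (0.188 each, 0.0358 to 0.634) rest on 10, 3 and 3 aged UMIs. No gene list moved by more than 0.25 (log2) in its median except 3 check lists: T cell (-0.62), myeloid (-0.52) and erythroid and platelet genes (-1.04), which hold few UMIs. The precursor and transitional list had a median log2 ratio of -0.09 and mature follicular genes 0.07, beside 0.016 over all genes.

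Against aged WT, Trans B cells of the miR-146a knockout had high levels of B cell precursor genes and low levels of mature B cell, MHC class II and homing genes. Of the 6414 genes, 917 (14.3%) were at least 1.5-fold higher and 729 (11.4%) at least 1.5-fold lower, 25.7% in either direction. The whole interval lay beyond 1.5-fold for 152 higher (2.37%) and 66 lower (1.03%). The double knockout against the same aged WT library gave 723 higher (11.3%) and 585 lower (9.12%), 20.4% together, with 103 (1.61%) and 19 (0.296%) by the whole interval. The values of both knockouts are given side by side below because they share that control library.

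The precursor genes were the extreme of the comparison. Vpreb1 had 3, 0, 343 and 222 UMIs in Trans B cells of the 4 libraries, or 3.49, 0, 541 and 303 CPM. Against a floor of 3 counts in aged WT it was at least 124-fold higher in the miR-146a knockout and at least 69.4-fold higher in the double knockout. Igll1, the other surrogate light chain gene, had no UMI in either WT library and was at 418 and 246 CPM in the knockouts, at least 95.8-fold and 56.3-fold higher than in aged WT. The lower ends of the Igll1 intervals were 77.3-fold and 45.3-fold. Vpreb2, a near-identical copy of Vpreb1 whose reads cannot be cleanly divided from it, was at 0, 0, 69.5 and 39.6 CPM. Both knockout libraries were high and both WT libraries at or near 0 for all 3 genes.

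The recombination genes had the same order. Rag1 was at 2.32, 0, 82.1 and 50.5 CPM and Rag2 at 0, 1.46, 50.5 and 45.1 CPM. Dntt, which adds untemplated bases at heavy chain joints, was at 0, 0, 167 and 90.1 CPM, at least 38.3-fold and 20.6-fold higher than in aged WT. In Fo B cells no library had more than 1.69 CPM of any of these 6 genes. Mme, which encodes the precursor antigen CD10, had no UMI in Trans B cells of any library, which allows up to 3 counts.

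Regulators and receptors of early B cells were also higher. Il7r, the receptor chain for IL-7 on which mouse precursors depend, was at 17.4, 8.74, 197 and 101 CPM, a ratio to aged WT of 22.6 (10.1 to 62.7) in the miR-146a knockout and 11.6 (5.07 to 32.5) in the double knockout. T cells express it too, but Fo B cells held at most 3.402 CPM. Without cells of 3 or more UMIs of T cell, myeloid or NK genes, a filter that counts Il7r itself, it had no UMI left in the miR-146a knockout, 7 in the double knockout and 1 in aged WT. With S100a8 and S100a9 not counted in that filter, Il7r had 21, 23 and 1 UMIs in the same order. The transcription factor gene Myb was at 17.4, 14.6, 221 and 116 CPM (15.2-fold, 8.01 to 32.3, in the miR-146a knockout), and Sox4 at 112, 102, 568 and 389 CPM (5.57-fold, 4.31 to 7.31). Ebf1, the factor that specifies the B lineage, was at 2142, 2359, 4244 and 3379 CPM (1.80-fold, 1.69 to 1.91). The survival gene Bcl2l1 (Bcl-xL) was at 2.32, 8.74, 89.97 and 66.9 CPM (10.3-fold, 4.45 to 29.2), and Ezh2, a histone methyltransferase gene, at 23.2, 30.6, 178 and 83.3 CPM. Ptgr1 (at least 24.6-fold) and Capsl (at least 13.4-fold) had no UMI in aged WT and 4 and 5 in young WT.

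For the precursor and transitional list as a whole, 20 of 22 members were measured. In the miR-146a knockout 16 were at least 1.5-fold higher, beside 14.3% of all genes, and none was lower. The median log2 ratio was 1.73, against 0.038 for all genes. In the double knockout 15 were higher, beside 11.3% of all genes, with a median of 1.41. Genes with no UMI in aged WT were also put at their lower bound. Those bounds lie above the list medians, so this step could not move either median. Some members reached the UMI minimum only through the knockouts. Among the 14 with at least 20 UMIs in the WT libraries, 10 were higher in the miR-146a knockout (median 1.45) and 9 in the double knockout (0.95). The lowest ratio of the list was that of Cd79a, 0.936 (0.887 to 0.987).

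Tpm3-rs7 (9.29, 4.37, 275 and 291 CPM) and Tpm3 (452, 494, 242 and 180 CPM) moved in opposite directions. They are related copies among which reads may be divided, so each value is uncertain. In Fo B cells Tpm3-rs7 was 28.7-fold higher and Tpm3 had a ratio of 0.541 between the miR-146a knockout and aged WT, so this pair was not particular to Trans B cells.

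Promoter windows of 4 of these genes are shown because the genes were high together, with a motif found by search in capitals (RefSeq, GRCm38.p6, 5′ to 3′ on the gene's strand). The E-box CACCTG, or CAGGTG on the other strand, is a form bound by E proteins such as E2A, and ATTTGCAT is the octamer bound by Oct factors at immunoglobulin promoters.
Rag1, chr2:101649649-101649678, minus strand: tcctgaagagcCAGGTGccagctggagctg
Igll1, chr16:16863986-16864015, minus strand: ctggggtttggctacacagatcCACCTGca
Vpreb1, chr16:16869325-16869354, minus strand: tgacgttccagCAGGTGcttcctcccagaa
Vpreb3, chr10:75948244-75948273, plus strand: tcagtgggctgATTTGCATgctctattgtg
In the 250 bases before the start site, on both strands, the E-box occurred in 4 of the 6 precursor genes (Rag1, Igll1, Vpreb1 and Vpreb2) and in 17.2% of 32851 promoters. The octamer occurred in Vpreb3, 45 bases before the start, and in 1.60% of promoters. No promoter of these genes held both motifs. The GENCODE spans of Vpreb1 and Vpreb3 begin further upstream than these RefSeq starts, so those windows lie inside the annotated genes. A match of letters is a description, not a bound site.

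The precursor transcripts were not spread over all Trans B cells. The 6 genes Rag1, Rag2, Dntt, Igll1, Vpreb1 and Vpreb2 were summed in each cell. No Trans B cell of young or aged WT held more than 1 such UMI, so that cells with 2 or more were 0 of 409 and 0 of 334, with exact Clopper-Pearson upper limits of 0.898% and 1.10% (a floor of 3 cells gives 0.734% and 0.898%). In the miR-146a knockout 38 of 282 cells held 2 or more (13.5%, 9.72 to 18.02), and in the double knockout 28 of 369 (7.59%, 5.10 to 10.8). The cut at 2 was set after the values were seen: 8 and 9 cells lay just inside it at 2 UMIs, and 34 and 27 just outside at 1. Cells with 10 or more numbered 20 and 11 and held 88.8% and 84.8% of the 842 and 567 precursor UMIs. Cells with 2 or more were somewhat deeper than cells with no precursor UMI. Their median was 2333.5 against 2012.5 UMIs in the miR-146a knockout, and 2169 against 1792 in the double knockout. The miR-146a knockout cell with the most precursor UMIs, 71, was also the deepest of its Trans B cells, at 7835 UMIs, and held 7 Ms4a1 UMIs. The deepest Trans B cell of the double knockout, at 6594 UMIs, held 2 precursor UMIs. Whether such deep cells were doublets was not tested. Trans B cells held 55.9% and 57.3% of all precursor UMIs in their libraries. Among other annotated types, GC Centrocyte cells held the most, with 12 and 11 cells at 2 or more.

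**Figure D3:**
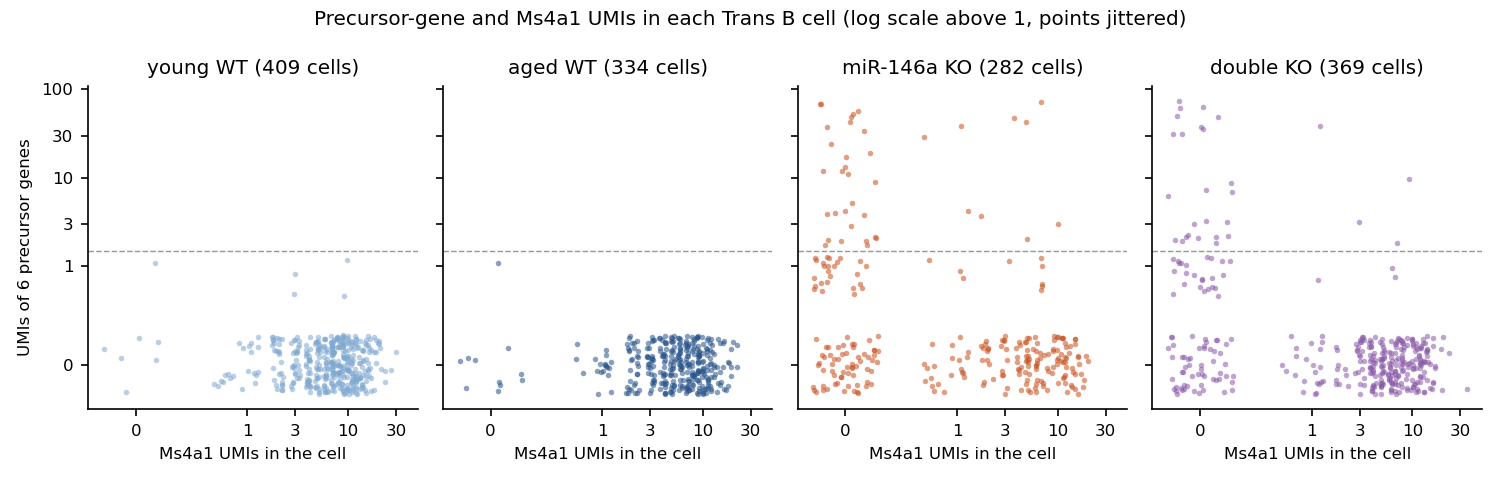
Each point is a Trans B cell, with its Ms4a1 UMIs on the horizontal axis and its UMIs of 6 precursor genes on the vertical axis (both linear up to 1 and logarithmic above, points jittered), 1 panel per library. Points above the dashed line hold 2 or more precursor UMIs: 0, 0, 38 and 28 cells from left to right, most of them at 0 Ms4a1 UMIs.

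The precursor-positive cells shared other genes that the cut did not use. Cells with 2 or more precursor UMIs were compared with those of the same library that had none. Examples are named from the genes whose whole interval lay beyond 1.5-fold in both knockout libraries, apart from the 6 and the classes left out. Lef1, a transcription factor gene of early lymphocytes, was at 340 against 26.6 CPM in the miR-146a knockout (12.8-fold, 6.498 to 27.0) and at 298 against 27.5 CPM in the double knockout. Tspan13 was at 840 against 208 CPM and 759 against 204 CPM. The nucleotide synthesis gene Impdh1 (142 against 8.86 CPM, and 193 against 4.85) and Dck, the deoxycytidine kinase gene (189 against 46.5, and 179 against 29.1), were higher as well. Ms4a1, which encodes CD20 and appears as B cells mature, was at 340 against 2213 CPM (ratio 0.153, 0.107 to 0.214) and at 298 against 2944 CPM. The BAFF receptor gene Tnfrsf13c (132 against 476, and 104 against 575 CPM), Klf2 (576 against 1529, and 312 against 1864) and Cd74, the MHC class II invariant chain gene (5492 against 16808, and 4894 against 20951), were lower.

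Light chains were low in these cells. The median Igkc count was 7.5 and 7 UMIs per cell, against 22.5 and 32 in cells with no precursor UMI, and 9 of 38 and 11 of 28 cells held 5 or fewer light chain UMIs (23.7% and 39.3%, against 2.38% and 0.637%). T cells of these libraries also held immunoglobulin constant transcripts, 2293.5 and 2201.7 CPM summed over that list. How much of the light chain counts came from other cells was not tested. Mki67, a marker of cycling cells, had 0, 0, 1 and 0 UMIs in all Trans B cells. In GC Centrocyte cells with 2 or more precursor UMIs it had 38 and 21.

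A larger set of knockout Trans B cells lacked Ms4a1. It was not seen in 7 of 409 cells of young WT (1.71%) and 11 of 334 of aged WT (3.29%), but in 117 of 282 cells of the miR-146a knockout (41.5%, 35.7 to 47.5) and 105 of 369 of the double knockout (28.5%, 23.9 to 33.4). After thinning to 1000 UMIs, Ms4a1 was seen in 91.6%, 88.6%, 49.1% and 68.3% of Trans B cells, in 74.9% to 82.4% of Fo B cells and in 1.70% to 3.91% of T cells. Only 29 and 24 of the cells without Ms4a1 held 2 or more precursor UMIs, and 63 and 57 held none. Ighm, the IgM heavy chain gene, was at 7515 CPM in the 117 cells against 8140 CPM in the other cells of the miR-146a knockout, and at 8193 against 9885 CPM in the double knockout. Ighd was at 91.0 against 561 CPM, and at 199 against 628 CPM. Vpreb3 was at 5556 against 2217 CPM and at 5605 against 1778 CPM, Cd93 at 191 against 54.6 CPM and at 136 against 42.5 CPM, and Sox4 at 1175 against 221 CPM and at 1030 against 163 CPM. In both libraries the cells without Ms4a1 held nearly as much IgM transcript as the others and much less IgD.

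Genes of mature B cells were lower in knockout Trans B cells. Fcer2a (CD23) was at 240.5, 262, 72.6 and 145 CPM, a ratio of the miR-146a knockout to aged WT of 0.277 (0.196 to 0.385). Ighd was at 660, 689, 390 and 516 CPM (0.566, 0.483 to 0.662), Cr2, the complement receptor gene, at 89.5, 109, 37.9 and 45.1 CPM (0.347, 0.209 to 0.556), and Cd55 at 250, 317, 118 and 175 CPM (0.373, 0.283 to 0.487). Of 14 mature follicular genes measured, 9 were at least 1.5-fold lower in the miR-146a knockout (beside 11.4% of all genes), against 5 in the double knockout (beside 9.12%), with medians of -0.83 and -0.50. The exception was H2-Q7, a non-classical MHC class I gene, which was 2.38-fold and 2.08-fold higher. Also among the lowest ratios were March1 (0.245, 0.145 to 0.396), which encodes a ligase that removes MHC class II from the surface, Fgd2 (0.339, 0.233 to 0.485), Wdfy1 and Coq10b, the last 2 from 4 knockout UMIs each. Wfdc21 was at 192 CPM in aged WT and 56.8 in the miR-146a knockout, while in Fo B cells it was at 3.18 and 18.2 CPM.

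MHC class II genes, which present antigen to helper T cells, were lower as a group. H2-Aa was at 3350, 3933, 2227 and 2956 CPM (ratio 0.566, 0.531 to 0.604, in the miR-146a knockout), H2-Ab1 at 4051, 4421, 2372 and 3187 CPM (0.537, 0.504 to 0.571) and Cd74 at 25330, 25489, 13852 and 18350 CPM (0.543, 0.530 to 0.558). Of 11 genes, 9 were at least 1.5-fold lower in the miR-146a knockout (median -0.82, beside 11.4% of all genes) and 4 in the double knockout (-0.47, beside 9.12%), and none was higher. Summed, the list was at 37629, 39366, 21655 and 28480 CPM in Trans B cells and at 52492, 54308, 49981 and 52370 CPM in Fo B cells. Within Fo B cells the median was -0.06 and no member lay beyond 1.5-fold. Homing and retention genes had a median of -0.73 in the miR-146a knockout, with 10 of 15 lower, beside 11.4% of all genes. Among the lower was Gpr183 (EBI2, a follicle positioning receptor), at 60.4, 51.0, 15.8 and 50.5 CPM. The 1 higher was Cxcr4, the receptor that retains cells in marrow (6.97, 17.5, 44.2 and 17.8 CPM).

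The same lists were read in 2 sets of Trans B cells, both chosen after values had been seen. The second is defined by Ms4a1, which itself differs between the libraries. Here the added UMI was scaled to each library's total, because the totals of the sets are unequal. Over cells with no precursor UMI, the 6 genes that define the set were left out of the precursor and transitional list. The median log2 ratio of the miR-146a knockout to aged WT was then 1.28 for the other 14 of its genes (9 higher), -0.77 for mature follicular genes (8 of 14 lower) and -0.63 for MHC class II genes (8 of 11 lower). Of all genes in that set, 12.7% were at least 1.5-fold higher and 12.2% lower. Over cells with an Ms4a1 UMI, 165 in the miR-146a knockout and 323 in aged WT, the 3 medians were 1.04 (11 of 20 higher), -0.49 (6 of 14 lower) and -0.30 (2 of 11 lower), against 10.6% of all genes higher and 11.8% lower. Vpreb3 had a ratio of 3.39 (3.11 to 3.70) over all cells, 2.97 (2.71 to 3.26) over cells with no precursor UMI and 2.18 (1.97 to 2.41) over cells with an Ms4a1 UMI. Il7r had ratios of 22.6, 25.8 and 25.6, the last from 31 and 2 UMIs. H2-Aa moved from 0.566 over all cells to 0.815 over cells with an Ms4a1 UMI. Cd93 had a ratio of 1.52 (0.811 to 2.82) in the last set, with an interval that includes 1. For the double knockout against aged WT the medians of the same 3 lists over cells with an Ms4a1 UMI were 0.81, -0.27 and -0.12, with 11 of 20 higher, 2 of 14 lower and 1 of 11 lower, against 8.51% of all genes higher and 9.79% lower.

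**Figure D4:**
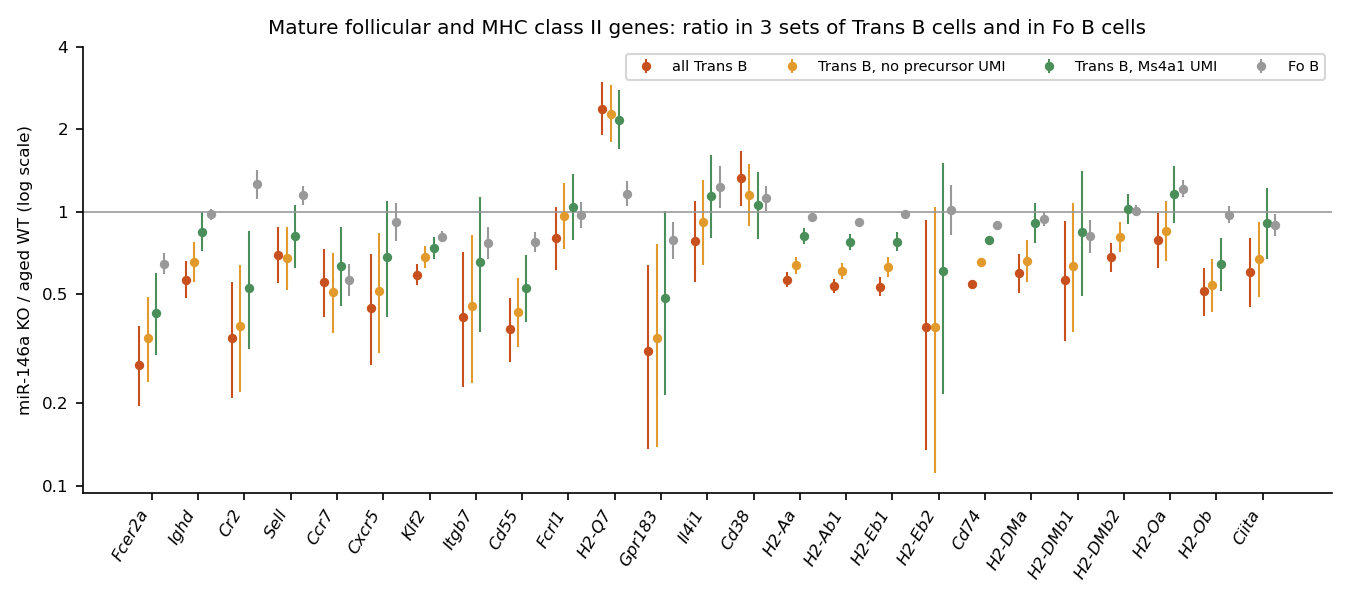
Ratio of the miR-146a knockout to aged WT (vertical axis, logarithmic, bars are 95% counting intervals) for 14 mature follicular genes and 11 MHC class II genes, in all Trans B cells, in those with no precursor UMI, in those with an Ms4a1 UMI, and in Fo B cells. H2-Aa lies at 0.566 over all Trans B cells and at 0.815 over those with an Ms4a1 UMI.

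Most other programmes differed less, though germinal centre, B1 and age-associated, and immunoglobulin constant genes had medians of similar size to those above. Of all genes, 14.3% were at least 1.5-fold higher in the miR-146a knockout than in aged WT and 11.4% lower. Between the miR-146a knockout and aged WT, type I interferon (median 0.14), interferon gamma (0.09), NF-kB response (-0.18), apoptosis (0.21), marginal zone (0.06), B lineage transcription factor (-0.05) and immediate early and heat shock (-0.11) lists lay within 0.25 of 0. Toll-like receptor pathway (-0.44), BAFF, CD40 and survival (-0.41) and B cell receptor (-0.30) lists were lower and plasma cell genes (0.45) higher. B1 and age-associated genes had a median of 0.82, with 6 of 9 higher, led by Lgals1 (76.7, 34.9, 242 and 176 CPM). Without cells of 3 or more UMIs of T cell, myeloid or NK genes that median was -0.083, and -0.20 with the added UMI scaled to the totals. That filter left 31.2% of miR-146a knockout Trans B cells. With S100a8 and S100a9 not counted in it, the median kept its direction. Germinal centre genes had a median of 1.02 over only 3 measured members, and immunoglobulin constant genes -0.68 with 6 of 10 lower, among them Iglc2 (0.512) and Igkc (0.598), while Ighm stood at 0.929. Cell cycle genes had a median of 0.27, with Stmn1 3.07-fold higher and Pcna at 0.502. Targets of miR-146a known from the literature stood at a median of -0.12 with 2 of 10 higher and 2 lower, from Cxcr4 (2.53) to Irak2 (0.292, 0.107 to 0.690), and those of miR-155 0.21 with 3 of 10 higher, led by Socs1 (3.01).

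**Figure D5:**
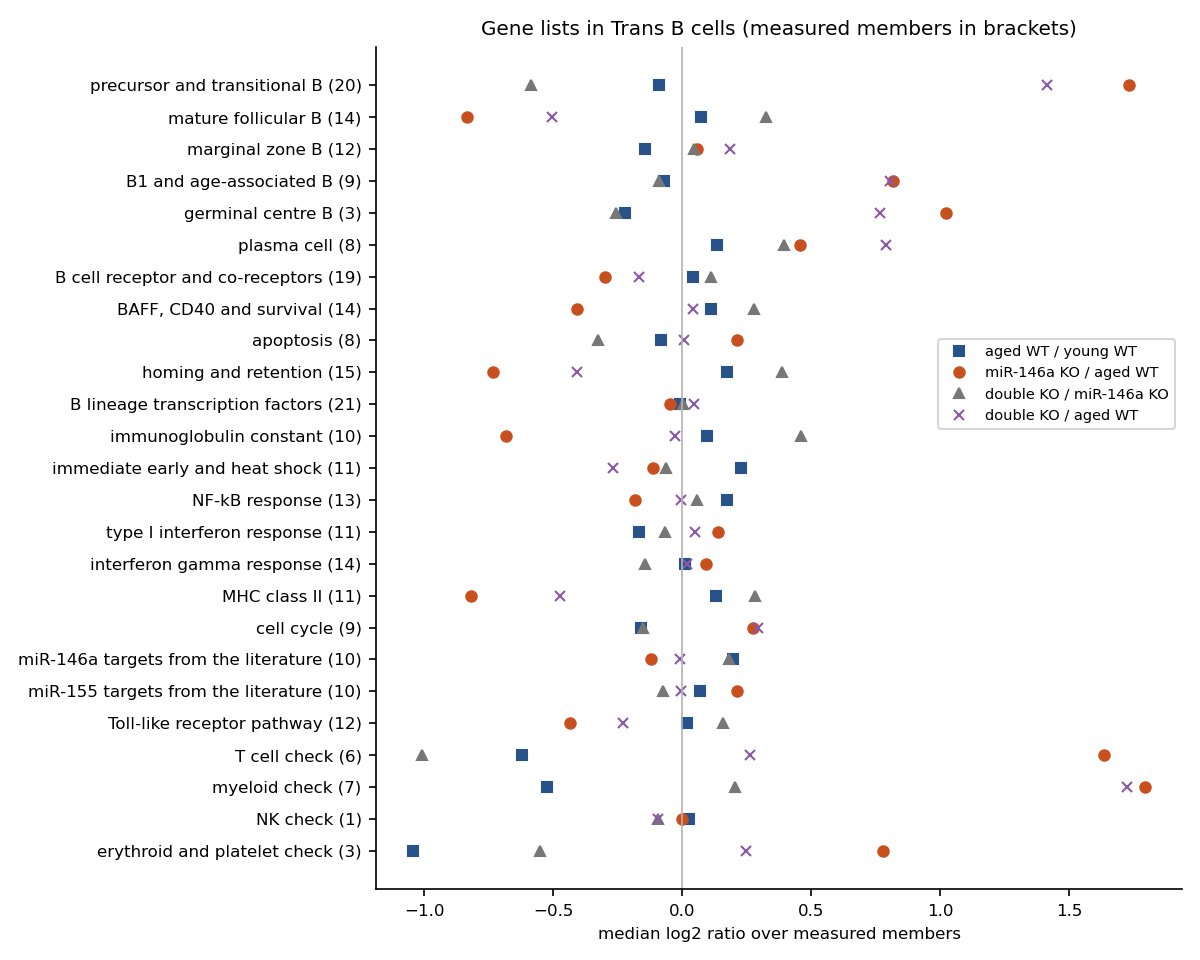
Median log2 ratio (horizontal axis) over the measured members of each gene list (vertical axis, number measured in brackets) in Trans B cells for 4 comparisons. The precursor and transitional list lies at 1.73 and 1.41 in the knockouts against aged WT and at -0.09 with age, and mature follicular and MHC class II genes lie below 0 in both knockouts.

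Genes of other cell types were read in the same cells. The myeloid check list summed to 538, 502, 1408 and 1466 CPM in Trans B cells, to 476, 698, 1386 and 1463 CPM in T cells and to 454, 431, 1071 and 1389 CPM in Fo B cells, and had UMIs of 9, 10, 11 and 10 of its 15 genes. S100a8 alone was at 12.8, 5.82, 414 and 494 CPM in Trans B cells and at 4.54, 9.87, 377 and 536 CPM in Fo B cells, and was seen in 57.1% and 60.2% of knockout Trans B cells against 62.6% and 65.1% of knockout T cells (median depths 2061.5 and 1797 against 2265 and 2143 UMIs). Csf1r had no UMI in Trans B cells. The T cell list summed to 178, 108, 486 and 228 CPM against 10417 to 11635 CPM in T cells, with 14, 12, 14 and 13 of its 14 genes seen. It includes Il7r, at 197 of the 486 CPM. Trac, the T cell receptor gene, was at 33.1 CPM in the single and 6.83 CPM in the double knockout. NK genes summed to 43.0, 32.0, 29.99 and 28.7 CPM, and erythroid and platelet genes to 61.6, 40.8, 177 and 72.4 CPM. The part of these transcripts in the results above was not tested. The authors' annotation sets T and B doublets apart, and no further doublet removal was done here.

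The medians of the precursor, mature follicular, MHC class II and homing lists against aged WT lay closer to 0 in the double knockout than in the other knockout. Against the miR-146a knockout, 458 genes (7.14%) were at least 1.5-fold higher and 518 (8.08%) at least 1.5-fold lower, and the whole interval lay beyond 1.5-fold for 9 in each direction (0.14%). Of the 20 precursor and transitional genes 10 were at least 1.5-fold lower, with none higher and a median of -0.58. Vpreb1 had a ratio of 0.560 (0.471 to 0.665), Igll1 0.588 (0.484 to 0.713), Dntt 0.539 (0.390 to 0.739), Il7r 0.512 (0.379 to 0.688) and Ezh2 0.467 (0.336 to 0.643). Rag2 stood at 0.892 (0.532 to 1.498), which includes 1. Mature follicular genes had a median of 0.32, with 2 of 14 higher, MHC class II genes 0.28 with none beyond 1.5-fold, and homing genes 0.38, with Gpr183 3.201-fold higher (1.56 to 7.22). Jchain was at 197 against 56.8 CPM (3.46-fold, 2.39 to 5.13), while in Fo B cells it was at 77.0 against 68.7 CPM. Without cells that held 3 or more UMIs of the T cell, myeloid or NK lists its log2 ratio was -0.96, from 9 and 13 UMIs, against 1.76 over all cells. With S100a8 and S100a9 not counted in that filter, Jchain kept 121 UMIs in the double knockout and 21 in the miR-146a knockout. Lpar6 was at 8.19 against 34.7 CPM, from 6 UMIs in the double knockout, and the interferon-stimulated gene Isg15 at 6.83 against 31.6 CPM (ratio 0.216, 0.0634 to 0.594).

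Some genes were lower in both knockouts, and the interval of their ratio between the knockouts included 1. Against aged WT, the double knockout had ratios of 0.353 (0.232 to 0.526) for March1, 0.447 (0.340 to 0.584) for Gm2a, which encodes a lysosomal lipid activator, 0.411 for Grcc10 and 0.293 for Pgap1. In the miR-146a knockout these were 0.245, 0.399, 0.475 and 0.361. Ulk3 (0.141) and Med16 (0.213) rest on 3 and 5 UMIs in the double knockout. 9930111J21Rik2 had ratios of 0.241 and 0.417 in the 2 knockouts, and one of 0.315 in Fo B cells of the miR-146a knockout.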

How the data were processed

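The 4 10x Genomics libraries (1 per group) were used. The authors deposited raw UMI counts per gene and barcode, made with Cell Ranger 3.0.0 on mm10 per the submitters' processing notes, and a table of cell type names, a label column with no numbers (unit: other), made in a way that no source here states. Both 3' and 5' chemistry occur in the labels. Trans B cells were taken by that name. UMIs were summed per library over Trans B cells and scaled to CPM, and log2 ratios had 1 UMI added to each sum (scaled to the totals for lists in sets of Trans B cells). Genes with at least 40 UMIs over the 4 Trans B sums were compared, and a gene counted as higher or lower at 1.5-fold. Where a library had no UMI, the fold was taken against a floor of 3 counts per library. Such a fold leaves out counting error in the other library, so the interval can reach lower. Shares have exact Clopper-Pearson intervals and ratios of shares Katz intervals, at 95%.

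Up to 8 genes per direction and comparison were named, ranked by the interval bound nearest to 1, where the interval lay wholly beyond 1.5-fold and the higher library held 20 UMIs or more in no fewer than 15 cells. Up to 12 were named beside another B cell type, by the within-library ratio nearest to 1. Genes of antigen receptors, haemoglobins, mitochondria and ribosomal proteins, sex-linked RNAs and unnamed gene models (Gm with a number, or a name ending in Rik) were left out of naming. So were genes below 20% of their level in T, myeloid or NK cells. 9930111J21Rik2 does not end in Rik and was not left out. Markers, constant genes and the extreme members of 25 gene lists could be named too, and other examples were chosen after their values were seen. The members and lists were chosen with earlier results of these data known, and the precursor and Ms4a1 sets after seeing the values. Of 31053 gene IDs, 31011 were found in GENCODE M21, from which positions were read. Python 3.11.15 with scipy 1.17.1, R 4.3.3, edgeR 4.0.16 (TMM factors only) and DESeq2 1.42.0 (size factors only) were used. The steps were checked on simulated counts. Alternatives were other scalings, filters, folds and sets of cells.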

Additional observations from a re-analysis of the deposited data

Results flagged for a closer look

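Precursor transcripts also appeared outside the annotated cells. Among barcodes that the authors' annotation leaves out, 14 of 870 in the miR-146a knockout and 9 of 703 in the double knockout held 2 or more UMIs of the 6 precursor genes, against none of 805 in young WT and none of 1056 in aged WT. These barcodes are in no comparison above. They held 398 and 205 precursor UMIs with the other unannotated barcodes, 26.4% and 20.7% of all such UMIs in their libraries. The median depth of the 14 and 9 barcodes was 10000 and 9997 UMIs, and 13 and 7 of them held a Cd79a UMI. Mki67, a marker of cycling cells, had 33 and 29 UMIs in them, against none in the 38 and 28 precursor-positive Trans B cells. No source here says why they carry no annotation.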

How the results depend on the processing

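No paired analysis was possible because each group has 1 library. Of the alternatives, 1529 of 1792 list medians and 675 of 719 log2 ratios of named genes stayed close to the values above. The ratio of the Trans B share, in the order miR-146a knockout to aged WT, double knockout to miR-146a knockout and double knockout to aged WT, was 0.383, 1.12 and 0.428 without cells of 3 or more check UMIs (T cell, myeloid or NK), which left 31.2% and 36.3% of knockout Trans B cells against 77.8% and 83.8% of WT ones. With S100a8 and S100a9 not counted the first 2 were 0.742 and 1.20. Over cells with an Ms4a1 UMI the 3 were 0.623, 1.17 and 0.731, and over cells with no precursor UMI the first and last were 0.769 and 0.843. Among cells with a Cd93 or Vpreb3 UMI the first was 1.25. Of the B types, aged WT to young WT was 0.728 and the knockouts to aged WT 1.27 and 1.23.

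Counts of genes 1.5-fold higher and lower moved with the minimum. For aged WT to young WT they were 848 and 677 at 20 UMIs, 131 and 109 at 100 and 2168 and 1960 at 1 UMI, and 112 and 77 at a fold of 2. For the miR-146a knockout to aged WT they were 402 and 317 at 100 UMIs, 2934 and 2256 at 1 UMI, and 342 and 217 at a fold of 2. For the double knockout to the miR-146a knockout they were 765 and 916 at 20 UMIs, 128 and 157 at 100, 2040 and 2386 at 1, and 111 and 94 at a fold of 2. For the double knockout to aged WT they were 1105 and 941, 298 and 229, 2648 and 2211, and 241 and 118 in the same order. Without cells of 3 or more check UMIs 1503 genes were higher in the miR-146a knockout than in aged WT and 1167 in the double knockout, and 989 were higher and 1204 lower in the double knockout than in the miR-146a knockout, from fewer cells. With the added UMI scaled to each library's total, an alternative chosen after seeing the data, the miR-146a knockout had 1213 genes lower than aged WT under this filter, and higher genes made up 47.8% of those beyond 1.5-fold against 64.6% with 1 unscaled UMI. In the double knockout 973 were lower than in aged WT, and 1175 higher and 1148 lower than in the miR-146a knockout, or 717 higher with S100a8 and S100a9 not counted. In all Trans B cells that share was 54.9% with the scaled and 55.7% with the unscaled UMI.

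At 5 or more precursor UMIs 22 and 15 cells were positive. Without cells of 3 or more check UMIs the median of B1 and age-associated genes between the miR-146a knockout and aged WT was -0.083 and the log2 ratio of Jchain between the knockouts -0.963. With the scaled UMI these were -0.203 and -0.923, and Il7r, which the filter itself counts, was at -0.72 in the miR-146a knockout to aged WT. With S100a8 and S100a9 not counted the T cell list there was -0.022, and with the scaled UMI -0.173, or -0.22 with both counted. Between the knockouts it was 0.00346. The filter itself acts on this list. With S100a8 and S100a9 not counted, the B1 and age-associated median, Jchain and Il7r kept the direction they had over all Trans B cells. Over cells with no precursor UMI the 6 precursor genes have no value, being 0 by selection. Erythroid and platelet genes were at 0.326 with age at minimums of 20 and 1 UMI, where more of them are measured. Apart from the filter on T cell genes, the cause was not tested. Depth limits genes of few UMIs, whose intervals are wide.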
